A study of Mus musculus with 12 samples.

Results

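*Laptm5*, *Apbb1ip*, *Mgat4a*, *Ubash3b*, *Igsf6* and *Tanc2* are 6 genes listed as microglial whose counts rose more than those of the microglia markers *Cx3cr1* and *P2ry12* in brain cells sorted for a fluorescent reporter of p16. They were chosen by their measured values in this count table, as a list of genes whose rise from the RFPneg to the RFPpos samples of the same mice exceeded that of markers such as *Cx3cr1* and *P2ry12*. This criterion alone does not define the list, since 5.82% of all tested genes exceeded both markers. The 6 genes are 6 of the 47643 genes listed, and 6 of the 4210 genes with enough counts to be fitted. Because this contrast selected them, their fold changes, the separation of their groups and their excess over the markers are given as a description, with no test.

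The 10 bulk samples used here came from brains of male p16-3MR mice on a C57BL/6 background. In these mice the p16 promoter drives a transgene that carries a red fluorescent protein. The 5 mice were old, at 113, 115, 116, 116 and 116 weeks (mice 1 to 5), and each gave 1 RFPneg sample and 1 RFPpos sample. The populations were sorted by flow cytometry from viable nucleated cells on low or high fluorescence among cells gated with dyes for viability and DNA, so each sample is a mixture of cell types. The reporter, and not p16 protein, defined the populations, and all 10 samples came from old mice that carry the transgene.

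Microglia are the resident macrophages of the brain and are recognised by receptors and secreted proteins such as the fractalkine receptor *Cx3cr1*, the purinergic receptor *P2ry12* and the C1q chains of complement. The 6 genes act at different places in such a cell. *Laptm5* encodes a lysosomal membrane protein of blood and immune cells that binds Nedd4-type ubiquitin ligases and helps to send surface receptors to the lysosome. *Apbb1ip* encodes RIAM, the adaptor through which the small GTPase Rap1 reaches talin and activates integrins. *Ubash3b* encodes a phosphatase of the TULA family that removes phosphate from the kinase Syk and so dampens signals of immune receptors. *Igsf6* encodes a receptor of the immunoglobulin superfamily on myeloid cells. *Mgat4a* encodes a Golgi glycosyltransferase that starts an extra branch on N-glycans, and *Tanc2* a large scaffold protein best known from the postsynaptic side of neurons.

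Counts on genes were 177287, 196103, 415834, 248471 and 299680 in the RFPneg samples of mice 1 to 5, and 222560, 289713, 223052, 250482 and 242798 in the RFPpos samples. At this depth a gene of the group had between 8 and 580 counts in a single sample, and *Mgat4a*, *Ubash3b* and *Igsf6* had 83, 105 and 104 counts in the 5 RFPneg samples together. Levels are given as counts per 1000000 counts on genes (CPM). The libraries read 1 tag near the 3′ end of each transcript, so that CPM is not divided by gene length and levels are not compared between genes.

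The label of the group was checked against 20 classical microglia markers. All 20 had counts in each of the 10 samples, and together they took 2.31%, 1.55%, 1.66%, 1.49% and 2.15% of the counts on genes in the RFPneg samples and 4.39%, 3.83%, 4.00%, 3.85% and 3.33% in the RFPpos samples. Microglial transcripts were therefore present in both populations, at a larger share in the RFPpos sample of every mouse. In bulk samples, fewer cells of a type and less RNA per cell cannot be told apart. Across all genes, 10.3% of the tested genes were called higher in RFPpos and 11.3% lower (edgeR's quasi-likelihood test with the mouse as a block, Benjamini-Hochberg adjusted p under 0.05). The 20 markers were all among the higher genes in edgeR, and 18 of them by DESeq2, with a median log2 fold change of 1.20 against −0.02 for all tested genes.

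The bases before the start sites of the 6 genes were searched for 7 short motifs on both strands. RefSeq promoter sequences (GRCm38.p6) were matched for 6 of 6 genes and gave 8 start sites, of which the 250 bases before the start were used. The motifs were chosen after the sequences had been seen. AGGAAG, the core bound by PU.1, a transcription factor of macrophages and microglia, occurred before 5 of the 8 starts, in *Laptm5*, *Apbb1ip*, *Igsf6*, 1 of 2 starts of *Ubash3b* and 1 of 2 starts of *Mgat4a*, while 29.5% of all 32851 promoters hold it in the same length. A match of these letters is a description and shows no binding. The stretches around the matches are given on the strand of the gene (GRCm38.p6, plus for *Laptm5* and *Apbb1ip* and minus for the others) with the match in capitals, where CTTCCT is the same motif on the other strand, and the repeats in *Mgat4a* and *Ubash3b* are overlapping matches. Counted from the RefSeq starts, they begin 233 and 39 bases before that of *Laptm5* (chr4:130913073-130913098 and chr4:130913267-130913292), 172 bases before that of *Apbb1ip* (chr2:22774145-22774170), 54 and 24 before that of *Igsf6* (chr7:121074569-121074594 and chr7:121074539-121074564), 169 before the outer of 2 starts of *Ubash3b* (chr9:41158212-41158241) and 228 before the inner start of *Mgat4a* (chr1:37536613-37536642). The GENCODE starts differ: by the GENCODE spans of the genes, only the distal matches of *Laptm5* and *Igsf6* lie before the gene, and the others lie within it.
Laptm5 distal: ttcagcatccAGGAAGcagagtgcat
Laptm5 proximal: cagcctgtggCTTCCTcttttttgtt
Apbb1ip: accttagggcAGGAAGtgttttcttc
Igsf6 distal: cctgcttgtgCTTCCTtaatatgagt
Igsf6 proximal: ctctttacttCTTCCTttctgaaagg
Ubash3b: tctcttctccCTTCCTTCCTggcctttgcc
Mgat4a inner start: agaaccagccAGGAAGGAAGgaatacagtt

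*Tanc2* had no such match, and its promoter was made up otherwise. Of its 250 bases before the start, 85.6% were G or C, more than in 99.9% of all promoters, whereas *Igsf6* had 40.4% and the median promoter 52.4%. The GC box GGGCGG occurred before *Tanc2* and the outer start of *Mgat4a*, and in 32.7% of all promoters. TGANTCA, the AP-1 motif, was found before the inner start of *Mgat4a* (6.75% of all promoters) and TATAAA, the TATA box, before *Laptm5* (12.4%). The longer PU.1 form GAGGAAGT (2.44%), TCACGTGA (0.785%), the motif of the lysosomal regulator TFEB, and TAAAAATA (2.45%), a MEF2 form, were in none of the 8. To show the difference in base composition, the bases ahead of the annotated extent of the gene are printed for the outer start of *Mgat4a* (chr1:37541061-37541266, minus strand), with the GC box in capitals, and for *Igsf6* (chr7:121074582-121074780, minus strand), where the stretch ends within the distal CTTCCT match and lies inside the span of the gene *Mettl9* on the other strand.
Mgat4a outer start: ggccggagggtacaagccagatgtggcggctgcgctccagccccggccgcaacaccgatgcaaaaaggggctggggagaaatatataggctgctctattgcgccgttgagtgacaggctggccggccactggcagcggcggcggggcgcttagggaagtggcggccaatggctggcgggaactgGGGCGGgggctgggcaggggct
Igsf6: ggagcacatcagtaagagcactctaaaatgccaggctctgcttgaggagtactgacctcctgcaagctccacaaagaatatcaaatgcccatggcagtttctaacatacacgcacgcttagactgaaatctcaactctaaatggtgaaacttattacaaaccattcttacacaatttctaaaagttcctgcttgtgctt

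At the lysosome, *Laptm5* (ENSMUSG00000028581) is annotated on the plus strand of chromosome 4 at 130913125 to 130936141 (GRCm38). Its levels were 886, 464, 565, 620 and 811 CPM in the RFPneg samples of mice 1 to 5 and 2354, 1988, 1905, 2316 and 2002 CPM in the RFPpos samples. Every RFPpos sample lay above every RFPneg sample, with a gap from 886 to 1905 CPM, and the RFPpos samples were close to each other. The means were 669 ± 175 and 2113 ± 206 CPM (SD, n = 5 each), and the fitted log2 fold change was 1.70 (standard error 0.17), a 3.24-fold rise. *Laptm5* had the most counts of the group, 880 in RFPneg and 2591 in RFPpos, and the smallest coefficient of variation among RFPpos samples, 9.77%.

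*Apbb1ip* (ENSMUSG00000026786; chromosome 2, 22774094 to 22875653, plus strand), which couples Rap1 to integrins, had 451, 204, 202, 249.5 and 274 CPM in RFPneg and 1038, 835, 646, 798 and 745 CPM in RFPpos. Mouse 1 was the highest in both populations, and its RFPneg sample stood well above the other RFPneg samples while still below every RFPpos sample. The log2 fold change was 1.60 (standard error 0.18), from 276 ± 103 to 813 ± 145 CPM (SD, n = 5 each).

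*Ubash3b* (ENSMUSG00000032020; chromosome 9, 41011098 to 41161697, minus strand), the Syk phosphatase, had 113, 51.0, 77.0, 84.5 and 73.4 CPM in RFPneg and 355, 289.9, 278, 271 and 214 CPM in RFPpos. Again mouse 1 was the highest in both populations, and the groups did not overlap. The means of 79.7 ± 22.3 and 282 ± 50.3 CPM (SD, n = 5 each) gave a log2 fold change of 1.82 (standard error 0.22).

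*Igsf6* (ENSMUSG00000035004; chromosome 7, 121064067 to 121074572, minus strand), the surface receptor, had 73.3, 76.5, 57.7, 64.4 and 120.1 CPM in RFPneg and 157, 200.2, 395, 216 and 276 CPM in RFPpos. The populations were separated by the step from 120.1 CPM in the RFPneg sample of mouse 5 to 157 CPM in the RFPpos sample of mouse 1. The coefficient of variation among RFPpos samples, 37.0%, was the largest of the 6 genes. Mouse 3 combined the lowest RFPneg with the highest RFPpos level. The log2 fold change was 1.68 (standard error 0.26), from 78.4 ± 24.5 to 249 ± 91.9 CPM (SD, n = 5 each).

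In the Golgi, *Mgat4a* (ENSMUSG00000026110; chromosome 1, 37439340 to 37541016, minus strand) had 113, 40.8, 38.5, 64.4 and 76.7 CPM in RFPneg and 252, 269, 184, 176 and 288 CPM in RFPpos. The RFPneg samples of mice 2 and 3 were the lowest, on 8 and 16 counts, and the groups did not overlap. The log2 fold change of 1.87 (standard error 0.26) was the largest of the 6 genes, from 66.6 ± 30.4 to 234 ± 51.0 CPM (SD, n = 5 each).

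The scaffold gene *Tanc2* (ENSMUSG00000053580; chromosome 11, 105589986 to 105929304, plus strand) had 305, 224, 123, 129 and 164 CPM in RFPneg and 625, 563, 507, 395 and 535 CPM in RFPpos. The RFPneg samples of mice 1 and 2 were higher than the other RFPneg samples, and the RFPpos sample of mouse 4 was the lowest of its population. The log2 fold change of 1.55 (standard error 0.19) was the smallest of the 6 genes, from 189 ± 76.3 to 525 ± 84.6 CPM (SD, n = 5 each).

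The groups did not overlap for 6 of 6 genes, while 8.05% of all tested genes had every RFPpos value above every RFPneg value. Since the genes were selected on this difference, nothing is read from that count. The RFPneg sample of mouse 1 was the highest RFPneg sample for 5 of the 6 genes, all but *Igsf6*, and the RFPpos sample of mouse 1 was the highest RFPpos sample for 4, all but *Igsf6* and *Mgat4a*. The same mouse had the largest share of counts on the classical markers in both populations. *Igsf6* went the other way in mouse 1, with the lowest value of its RFPpos samples.

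**Figure D1:**
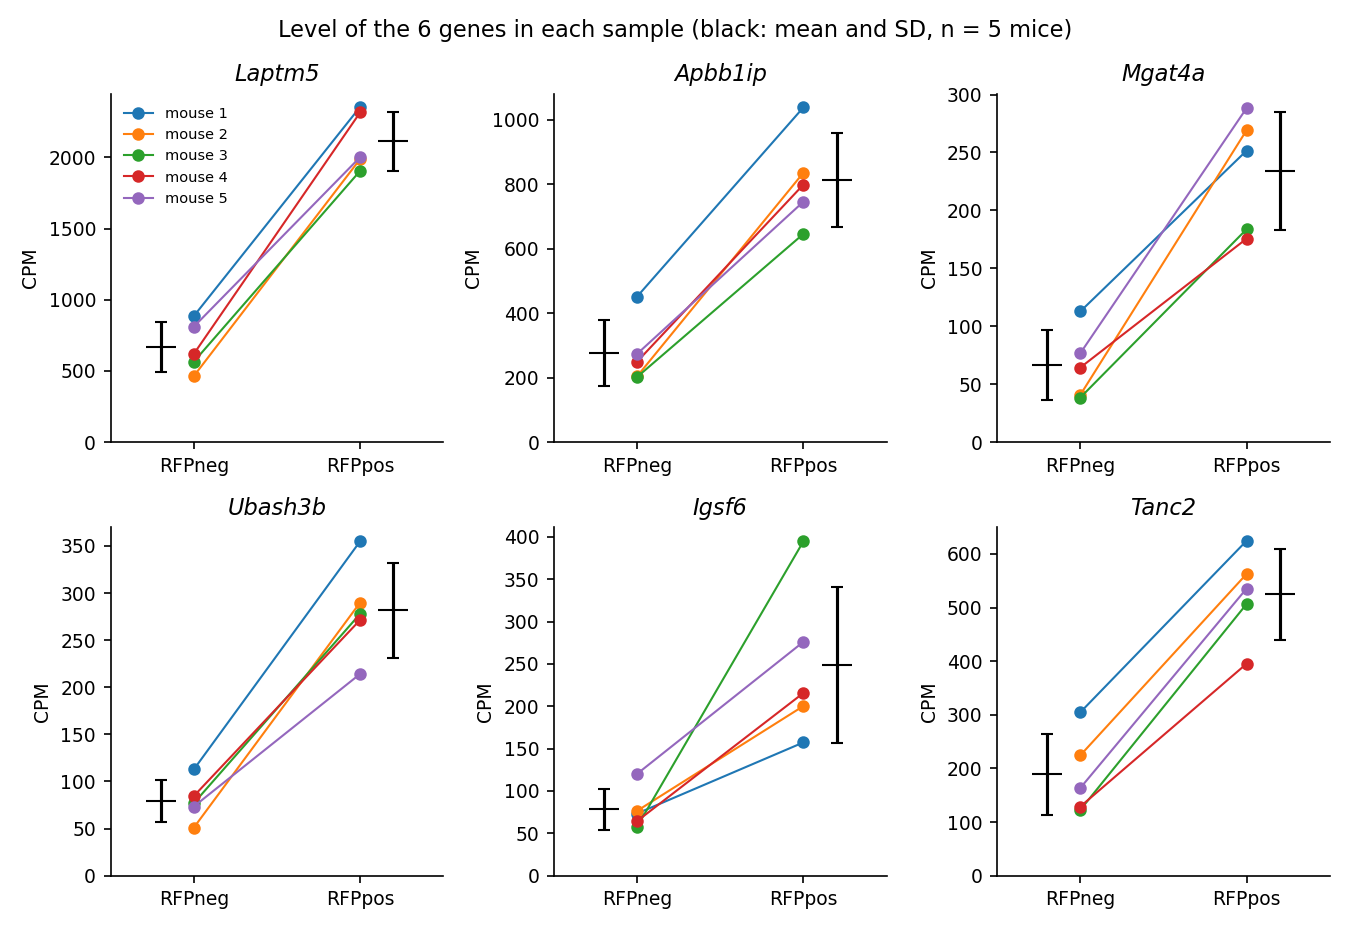
Level in CPM of each of the 6 genes in the RFPneg and RFPpos samples, with a line joining the samples of a mouse and the mean and SD of 5 mice in black. For each gene the RFPpos samples sit above the RFPneg samples, in *Igsf6* with a step from 120.1 to 157 CPM.

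The markers named by the rule were measured in the same samples. *Cx3cr1* had 4010.4, 2274, 2347, 2636 and 3801 CPM in RFPneg and 6389, 4774, 5631, 4938 and 5889.7 CPM in RFPpos, which edgeR fitted as 0.91 on the log2 scale (standard error 0.16, adjusted p = 0.000387, higher in 5 of 5 mice). *P2ry12* had 1856, 994, 1272, 801 and 1572 CPM in RFPneg and 3459.7, 2492, 2546, 2319.5 and 2063 CPM in RFPpos, fitted as 1.03 (standard error 0.18, adjusted p = 0.000323, higher in 5 of 5 mice). Neither marker overlapped between the populations, but the gap was narrow, from 4010.4 to 4774 CPM for *Cx3cr1* and from 1856 to 2063 CPM for *P2ry12*.

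All 6 genes lay above both markers, as the rule required, and 5.82% of all tested genes did so. Over *Cx3cr1* the excess in fitted log2 fold change ran from 0.64 for *Tanc2* to 0.95 for *Mgat4a*, and over *P2ry12* from 0.52 to 0.83 for the same genes. In order of log2 fold change, *Mgat4a* and *Ubash3b* came first, then *Laptm5*, *Igsf6*, *Apbb1ip* and *Tanc2*. Neighbours in this order differed by less than their standard errors, so the order within the group is not resolved. The median of the 6 was 1.69, against 1.20 for the 20 classical markers.

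The classical markers themselves spanned a range. *Fcrls*, an Fc receptor-like gene of microglia, reached 1.65 (standard error 0.19, edgeR's adjusted p = 3.89e-06, higher in 5 of 5 mice) and so lay above *Apbb1ip* and *Tanc2*, though below the other 4 genes. It was the only 1 of the 20 markers above any gene of the group, and without mouse 4 all 20 markers lay below the 6 genes. The next was *Aif1*, which encodes the actin-binding protein Iba1, at 1.40 (standard error 0.19). *Laptm5*, *Mgat4a*, *Ubash3b* and *Igsf6* exceeded 20 of 20 markers, and *Apbb1ip* and *Tanc2* exceeded 19. For *Igsf6* this rested on mouse 3, without which its log2 fold change was 1.37 and 19 markers lay below it. At the low end stood *C1qc* (0.87), *Trem2* (0.81), *Gpr34* (0.69) and *Tyrobp* (0.64), while *Selplg* (1.33), *Csf1r* (1.25), *Tgfbr1* (1.25), *Olfml3* (1.24), *Ctss* (1.24), *C1qa* (1.23), *Tmem119* (1.22), *Sall1* (1.20), *Siglech* (1.19), *C1qb* (1.05), *P2ry13* (1.05) and *Itgam* (1.04) lay between.

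**Figure D2:**
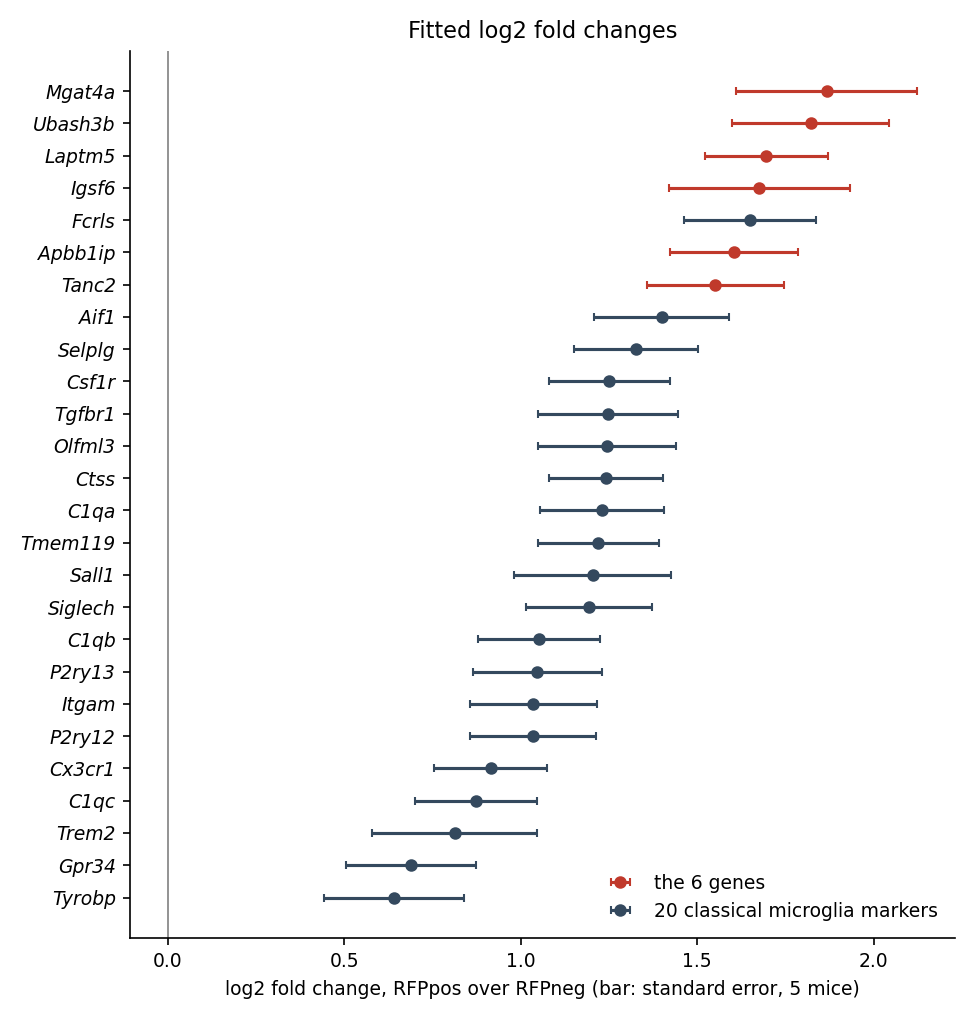
Fitted log2 fold change of RFPpos over RFPneg for the 6 genes (red) and the 20 classical microglia markers (dark). Bars give the standard error of the fit to 5 mice. The 6 genes lie between 1.55 and 1.87 and the markers between 0.64 and 1.65, and *Fcrls* is the marker that falls among the 6 genes.

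Within single mice the excess was less even than the fitted values. Counting 6 genes in 5 mice, the log2 difference of a gene exceeded that of *Cx3cr1* in 30 of 30 cases and that of *P2ry12* in 27 of 30. The 3 exceptions were *Mgat4a* in mouse 4, at −0.17, and *Igsf6* and *Tanc2* in mouse 2, both at −0.02 relative to *P2ry12*. In those mice *P2ry12* itself had its largest log2 differences, 1.40 in mouse 4 and 1.33 in mouse 2, and in mouse 5, where it had its smallest, 0.50, the excess over it was between 0.75 for *Igsf6* and 1.41 for *Mgat4a*. The number of genes above both markers was 6, 4, 6, 5 and 6 in mice 1 to 5. Within a mouse all 6 genes were set against the same marker values, so the 30 cases are not independent. Since the genes were chosen for this excess, nothing is read from these counts.

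*Laptm5* had the steadiest excess over *P2ry12*. Its log2 difference exceeded that of *Cx3cr1* by 0.77 ± 0.22 and that of *P2ry12* by 0.66 ± 0.22 (SD, n = 5 mice each), and by at least 0.36 in any mouse. *Ubash3b* followed with 0.84 ± 0.29 and 0.72 ± 0.39, and *Apbb1ip* with 0.67 ± 0.22 and 0.55 ± 0.35, both above 0 in 5 of 5 mice for both markers. For *Mgat4a* (0.74 ± 0.68), *Igsf6* (0.52 ± 0.69) and *Tanc2* (0.48 ± 0.60) the excess over *P2ry12* varied between mice by about as much as its mean or more.

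**Figure D3:**
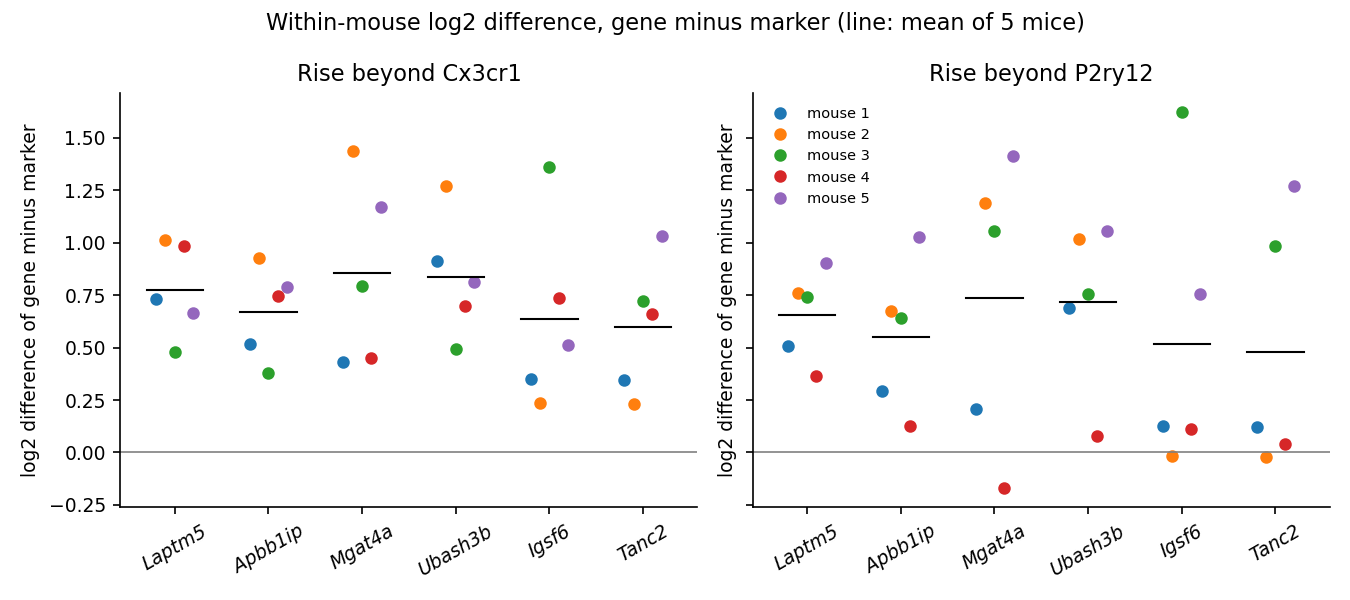
Within-mouse log2 difference (RFPpos minus RFPneg) of each gene minus that of *Cx3cr1* (left) or *P2ry12* (right), 1 point per mouse, with a line at the mean of 5 mice. All 30 points lie above 0 on the left, while on the right 3 of 30 lie below 0, *Mgat4a* in mouse 4 and *Igsf6* and *Tanc2* in mouse 2.

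Against the median of the 20 classical markers in the same mouse, the median log2 difference of the 6 genes was larger by 0.20, 0.67, 0.66, 0.14 and 0.84 in mice 1 to 5. Mice 1 and 4 thus had a small excess and the other 3 mice a larger one. Mouse 2 gave the largest log2 difference for *Laptm5* (2.09), *Apbb1ip* (2.00), *Mgat4a* (2.52) and *Ubash3b* (2.35), and mouse 3 for *Igsf6* (2.55) and *Tanc2* (1.91). The mouse with the largest difference was thus not the same for all 6 genes.

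For scale, the spread between mice is given beside the spread that the counts alone would give. The SD over mice of the log2 difference was 0.35 for *Ubash3b*, where the counts alone give 0.38, and 0.56 for *Mgat4a*, where they give 0.43. It was 0.26 for *Apbb1ip* with 0.21 from counting, 0.32 for *Tanc2* with 0.25, and 0.57 for *Igsf6* with 0.39. For *Laptm5*, the most deeply counted, it was 0.26, against 0.13 from counting. With 5 mice these spreads are themselves imprecise, and whether they differ was not tested.

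A second view sets each gene against the classical markers within a sample, which does not depend on the library size. Per 1000 counts on the 20 markers, the 6 genes together had 84.0, 68.6, 64.0, 81.0 and 70.7 counts in the RFPneg samples and 109, 108, 97.8, 108 and 122 counts in the RFPpos samples. The ratio rose in 5 of 5 mice, the populations did not overlap, and the means were 73.7 ± 8.48 and 109 ± 8.63 (SD, n = 5 each). *Laptm5* made up about as much of this as the other genes together, at 36.3 ± 4.40 and 54.7 ± 5.47 (SD, n = 5 each).

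By this ratio 2 of the 6 genes, *Laptm5* and *Ubash3b*, kept the populations apart, as did 0.095% of all tested genes, with *Ubash3b* at 4.38 ± 1.00 and 7.22 ± 0.630 per 1000 (SD, n = 5 each). *Apbb1ip* (14.9 ± 3.15 and 21.0 ± 2.89), *Mgat4a* (3.54 ± 1.08 and 6.12 ± 1.75), *Igsf6* (4.30 ± 1.00 and 6.51 ± 2.52) and *Tanc2* (10.3 ± 3.34 and 13.6 ± 2.22) overlapped between populations. All 6 were higher in RFPpos in 5 of 5 mice, as were 0.451% of all tested genes, and nothing is read from either count because this contrast selected the 6. The step was small in *Tanc2* of mouse 2, from 14.5 to 14.7, and in *Mgat4a* of mouse 4, from 4.31 to 4.57. *Cx3cr1*, which is itself 1 of the 20 markers, had 163 ± 17.4 and 143 ± 20.7 per 1000 and was higher in 1 of 5 mice, and *P2ry12* had 69.6 ± 10.7 and 66.0 ± 7.39 and was higher in 2 of 5.

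**Figure D4:**
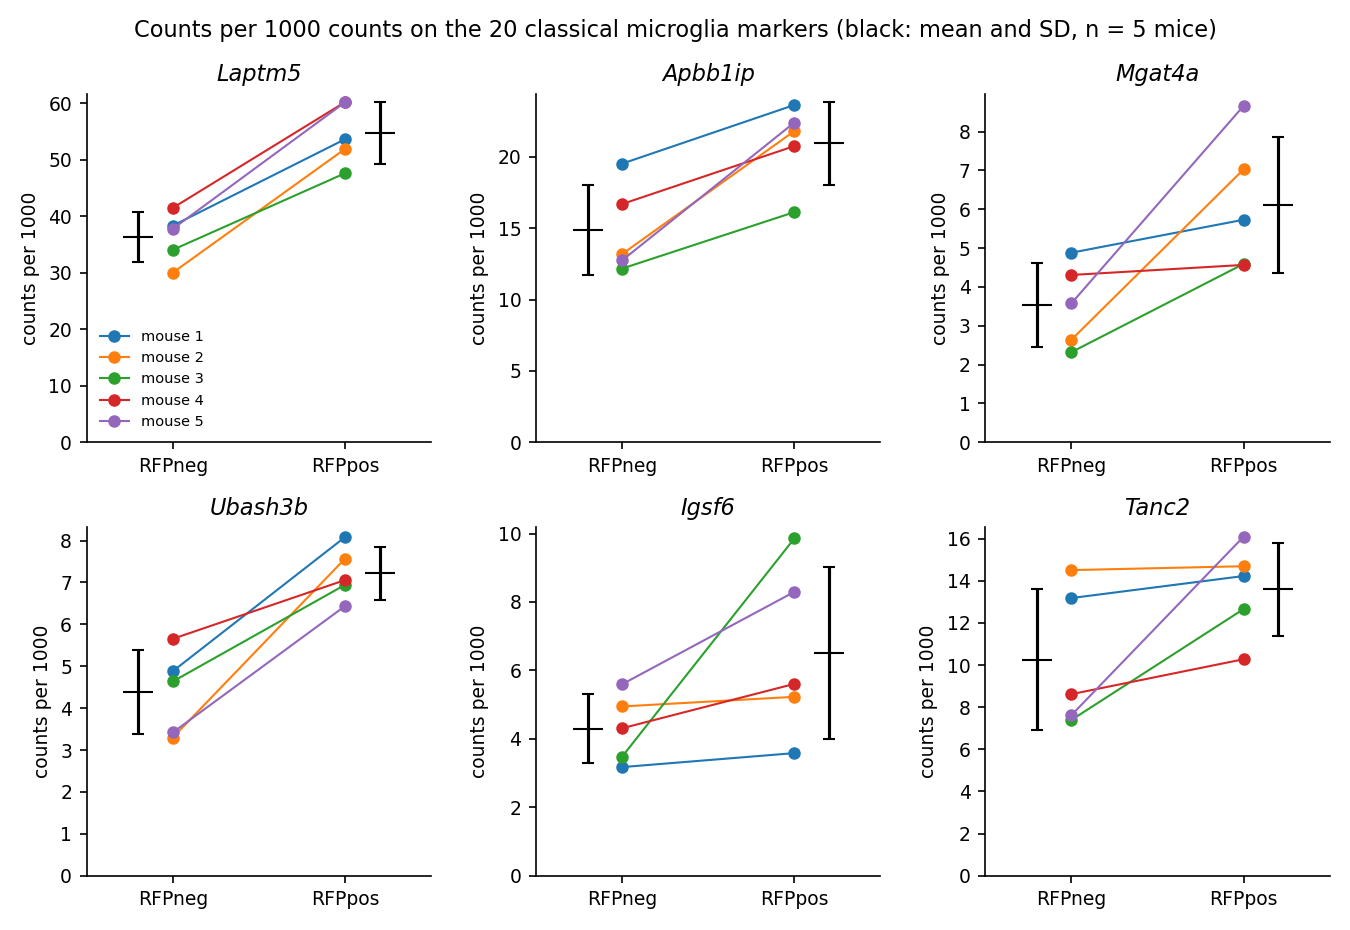
Counts of each gene per 1000 counts on the 20 classical microglia markers in each sample, with a line joining the samples of a mouse and the mean and SD of 5 mice in black. All lines rise, and the populations stay apart for *Laptm5* and *Ubash3b* (0.095% of all tested genes do so) and overlap for the other 4 genes.

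A change of library sizes moves all genes nearly alike, so that it shifts the fold changes but by construction hardly the excess. With library sizes taken from the 20 classical markers, the median log2 fold change of all tested genes moved from −0.02 to −1.12, *Cx3cr1* went to −0.19 and *P2ry12* to −0.07. Of the 20 markers 9 then lay below 0 (*C1qb*, *P2ry13*, *Itgam*, *P2ry12*, *Cx3cr1*, *C1qc*, *Trem2*, *Gpr34* and *Tyrobp*), which follows from a scaling that centres these markers near 0. *Mgat4a* was then at 0.79, *Ubash3b* at 0.73, *Laptm5* at 0.59, *Igsf6* at 0.58, *Apbb1ip* at 0.50 and *Tanc2* at 0.45. The median of the 6 exceeded that of the 20 markers by 0.48 under this scaling and by 0.49 under the scaling used elsewhere.

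The rule used no property of the gene models, so these were compared as a description. The 6 genes lie on 6 different chromosomes and are all protein coding. Their annotated spans have a median of 101618.5 bases, against 11864.5 bases for the 20 classical markers and 30510.5 bases for all tested genes, and 4 of the 6 are longer than the median tested gene. *Tanc2* is the longest at 339319 bases, and *Igsf6* (10506 bases) and *Laptm5* (23017 bases) are the short ones.

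Other annotated genes overlap 3 of the 6, and the strand setting of the counting is not given in the sources used here. *Igsf6* lies within *Mettl9*, a methyltransferase gene on the opposite strand of chromosome 7 (121034445 to 121078329), so that without strand, reads at positions that both gene models cover could not be told apart. Their annotated 3′ ends lie apart, at 121064067 for *Igsf6* and 121078329 for *Mettl9*. *Mettl9* had 41 counts in RFPneg and 34 in RFPpos, 29.3 ± 19.4 and 28.9 ± 22.5 CPM (SD, n = 5 each), and did not pass the minimum count, whereas *Igsf6* had 104 and 302 counts. *Mgat4a* contains the pseudogene *Gm43213* (8 and 12 counts) and the gene model *4930594C11Rik* (0 and 2 counts), and *Tanc2* the pseudogenes *Gm11653* (5 and 4 counts) and *Gm11652* (1 and 12 counts) and the miRNA gene *Gm23990* with no count.

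The partners of each gene were read from lists of its route, with the gene itself left out, beside the 10.3% of all tested genes that were higher and the 11.3% that were lower. Of all tested genes DESeq2 called 292 higher and 395 lower, and limma 484 and 489. Signs of the named partners held under all 5 scalings tried except where a reversal is given. With library sizes from the classical markers *Rapgef1* (0.0017), *Cbl* (0.05), *B4galt1* (0.06), *Fyb* (0.08), *Sirpa* (0.09) and *Siglech* (0.09) lay near 0. *Man1a2* (0.14), *Pik3cg* (0.19), *Ptpn6* (0.32), *Cd84* (0.36), *Fcgr3* (0.39) and *Vav1* (0.47) stayed farther above 0. For *Laptm5*, of 8 tested genes of its family and the Nedd4-type ligases 0 were higher in edgeR, at an unadjusted p under 0.05 as well, and 0 by DESeq2 or limma, while 1 was lower, and the median was −0.15. At 10.3% of all tested genes higher, a count of 0 among 8 is not told apart from the background. Its closest relatives did not pass the test, *Laptm4a* at −0.12 (standard error 0.17, adjusted p = 0.693, higher in 1 of 5 mice) and *Laptm4b* at −0.17 (standard error 0.37, adjusted p = 0.801, higher in 2 of 5). *Nedd4*, the ligase that *Laptm5* binds, fell, from 289 ± 27.7 to 78.7 ± 34.0 CPM (SD, n = 5 each), which edgeR fitted as −1.90 (standard error 0.26, adjusted p = 2.99e-05, lower in 5 of 5 mice).

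On the route of *Apbb1ip* from Rap1 over talin to integrins, 5 of 18 tested genes were higher and 2 lower, with a median of 0.28. The higher genes included the adaptor *Fyb* (1.19, standard error 0.21, adjusted p = 0.000466 from edgeR), the Rap1 exchange factor *Rapgef1* (1.10, adjusted p = 0.00843) and both chains of the myeloid integrin CR3, *Itgam* (1.04, adjusted p = 0.000376) and *Itgb2* (0.98, adjusted p = 0.000846), each higher in 5 of 5 mice. With library sizes from the classical markers *Itgam* went to −0.07 and *Itgb2* to −0.12, and the median of the route to −0.81. *Fermt2*, the kindlin of adherent non-blood cells (−1.84, adjusted p = 0.000325), and vinculin, *Vcl* (−1.76, adjusted p = 0.0244), were lower in 5 of 5 mice. DESeq2 called 4 of the 18 higher and 2 lower, limma 5 and 1. The adaptor *Skap2* did not pass the test, at 0.53 (standard error 0.22, adjusted p = 0.0928, higher in 5 of 5 mice), and turned to −0.56 with the marker library sizes.

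Around *Ubash3b*, 11 of 16 tested genes of the Syk route were higher and 1 lower, with a median of 0.90. The largest were the exchange factor *Vav1* (1.55, standard error 0.36, adjusted p = 0.00443 from edgeR), the phosphatase *Ptpn6* (1.39, adjusted p = 0.00546), the phosphoinositide kinase *Pik3cg* (1.29, adjusted p = 0.00193) and the ubiquitin ligase *Cbl* (1.15, adjusted p = 0.000249), each higher in 5 of 5 mice. DESeq2 called 8 of the 16 higher and limma 12, and the median of the route went to −0.18 with the marker library sizes. The Src-family kinase *Fyn* was lower in 5 of 5 mice (−1.46, adjusted p = 0.0142). *Ubash3a*, the lymphoid relative of *Ubash3b*, had 0 counts in all 10 samples.

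For *Igsf6*, 10 of 12 tested receptors of the myeloid immunoglobulin superfamily were higher in edgeR, 9 by DESeq2 and 11 by limma, with a median of 1.16, all 12 above 0, and a median of 0.06 with the marker library sizes. They were led by *Fcgr3*, an activating Fc receptor (1.49, standard error 0.17, adjusted p = 4.21e-06), *Cd84* (1.47, adjusted p = 0.000101), *Siglech* (1.19, adjusted p = 8.51e-05) and *Sirpa* (1.19, adjusted p = 0.000197), each higher in 5 of 5 mice. *Siglech*, like *Itgam* on the route of *Apbb1ip*, is also among the 20 classical markers, all 20 of which were higher in edgeR. Both genes therefore also enter the marker library sizes.

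For *Mgat4a*, 3 of 11 tested enzymes of N-glycan branching were higher in edgeR, 3 by DESeq2 and 3 by limma, with a median of 0.42 that went to −0.68 with the marker library sizes. They were the mannosidases *Man1a2* (1.23, standard error 0.21, adjusted p = 0.00031 from edgeR) and *Man1c1* (0.95, adjusted p = 0.00268), which trim N-glycans ahead of branching, and the galactosyltransferase *B4galt1* (1.16, adjusted p = 0.00139), each higher in 5 of 5 mice, and *Man1c1* turned to −0.16 with the marker library sizes. *Mgat4b*, the enzyme with the same activity as *Mgat4a*, did not pass the test, at 0.42 (standard error 0.35, adjusted p = 0.456, higher in 4 of 5 mice), and turned to −0.68 with them. *Mgat4c* had 14 counts in RFPneg and 1 in RFPpos and was not tested.

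For *Tanc2*, only 4 of 17 listed family and scaffold genes were tested, 1 was higher, and the median was −0.39. The higher gene was the scaffold kinase *Cask* (1.01, standard error 0.34, adjusted p = 0.0416 from edgeR, higher in 4 of 5 mice), whose RFPneg sample of mouse 1 stood above the others. Neither DESeq2 nor limma called it, and it turned to −0.07 with the marker library sizes. *Tanc1*, the relative of *Tanc2*, had 77 counts in RFPneg and 11 in RFPpos and was not tested.

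Among the 5 tested genes of at least 50 CPM whose 5 within-mouse log2 differences lay closest to the mean profile of the 6 genes were *Hpgds* (root mean square distance 0.26), a prostaglandin D synthase, *Fcgr3* (0.29), *Lpcat1* (0.32), an enzyme of phospholipid remodelling, and the classical marker *Aif1* (0.33). The median of all such genes was 1.75. Measured in the same way against the mean of the other 5, *Apbb1ip* (0.18), *Laptm5* (0.25) and *Ubash3b* (0.32) were as close as these, and *Tanc2* (0.37), *Mgat4a* (0.40) and *Igsf6* (0.52) were farther away.

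Other genes rose as far. Of the tested genes with at least 50 CPM, 20 outside the group had a log2 fold change above that of *Tanc2*, so the 6 are part of a longer series and not its upper end. Just above *Tanc2*, at 1.55 each, lay *Gm44667*, an unnamed gene model, and *Havcr2*, which encodes the checkpoint receptor Tim-3. Just below, also at 1.55 each, lay *Vav1* and *Rab3il1*, an exchange factor for Rab proteins. The order of these genes changed with the scaling: *Vav1* lay above *Tanc2* with library size alone (1.49 against 1.48) and with reads on no gene (1.39 against 1.38). With marker library sizes *Vav1* (0.47) and *Rab3il1* (0.48) lay above *Tanc2* (0.45) and *Havcr2* (0.44) below it. All 4 had larger standard errors than *Tanc2*, from 0.28 to 0.39 against 0.19.

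Markers of other brain and blood cells changed between the same samples. Endothelial markers took 0.198%, 0.638%, 0.669%, 0.862% and 0.509% of the counts in the RFPneg samples and 0.0130%, 0.0197%, 0.0273%, 0.0407% and 0.0272% in the RFPpos samples, all 10 tested genes of the 12 being lower, with *Flt1* the most abundant. Monocyte and neutrophil markers took 0.331%, 0.340%, 0.803%, 0.509% and 0.310% in RFPneg and 0.00764%, 0.0193%, 0.0278%, 0.0164% and 0.00371% in RFPpos, with 7 of 7 tested genes lower, *S100a8* the most abundant and *Ly6c2* and *Chil3* at 0 in RFPpos. Oligodendrocyte markers took 0.273%, 0.149%, 0.0984%, 0.0962% and 0.121% in RFPneg and 0.00854%, 0.0114%, 0.0166%, 0.0136% and 0.0198% in RFPpos, with 8 of 8 tested genes lower, *Cnp* the most abundant and *Opalin* at 0 in RFPpos.

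Neuron markers, relevant to *Tanc2*, took 0.0231%, 0.0382%, 0.0414%, 0.0487% and 0.0400% in RFPneg and 0.0193%, 0.00690%, 0.0184%, 0.00479% and 0.0194% in RFPpos, with 1 of 3 tested genes lower and *Meg3* the most abundant. Lymphocyte markers took 0.0434%, 0.0280%, 0.0414%, 0.0495% and 0.0567% in RFPneg and had 1, 2, 3, 4 and 1 counts in the RFPpos samples, with 1 of 1 tested gene lower, *Igkc* the most abundant and 9 of 12 at 0 in RFPpos (*Cd3g*, *Cd3e*, *Cd3d*, *Cd79a*, *Nkg7*, *Trbc2*, *Cd8a*, *Skap1* and *Lck*). Mural and fibroblast markers took 0.0474%, 0.0551%, 0.0327%, 0.0660% and 0.0370% in RFPneg and 0.00135%, 0.00828%, 0.0117%, 0.0196% and 0.00783% in RFPpos, with 3 of 3 tested genes lower, *Vtn* the most abundant and *Tagln* and *Lum* at 0 in RFPpos. Each of these 6 lists was lower in RFPpos in 5 of 5 mice (exact permutation test within mice, two-sided, p = 0.062, from 2 of 32 label exchanges and the smallest that 5 pairs allow).

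Astrocyte markers did not move in 1 direction, at 0.478% ± 0.0883 in RFPneg and 0.444% ± 0.220 in RFPpos (SD, n = 5 each; exact permutation p = 0.75), with 2 of 8 tested genes lower, *Slc1a2* the most abundant and the RFPpos sample of mouse 1 lowest at 0.0975%. Border macrophage markers had means of 0.0199% ± 0.00211 and 0.0200% ± 0.00748 (SD, n = 5 each, exact permutation p = 0.9375) and were lower in RFPpos in 3 of 5 mice. The RFPpos sample of mouse 2, at 0.0331%, raised the RFPpos mean, while the other RFPpos samples had 0.0144% to 0.0185%. The most abundant border macrophage marker, *Mrc1*, was the 1 gene of the list that was tested (0.58, standard error 0.33, adjusted p = 0.237 from edgeR, and −0.50 with the marker library sizes). The glial restricted progenitor markers *Npy* and *Fabp7* took 0.0535% ± 0.0297 and 0.0911% ± 0.0497 (SD, n = 5 each; exact permutation p = 0.125). *Fabp7* was the more abundant, at 0.17 on the log2 scale and −0.95 with the marker library sizes and −0.02 with reads on no gene. Of the 2 genes, both tested, 1 was higher in edgeR, *Npy* at 1.52, and their median of 0.85 went to −0.27 with the marker library sizes. Some of the 6 genes are also used by other cells of these lists, *Laptm5*, *Apbb1ip* and *Igsf6* by blood leukocytes and *Tanc2* by neurons. The part of these cells in the levels of the 6 genes, and in their excess over the markers, was not tested.

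**Figure D5:**
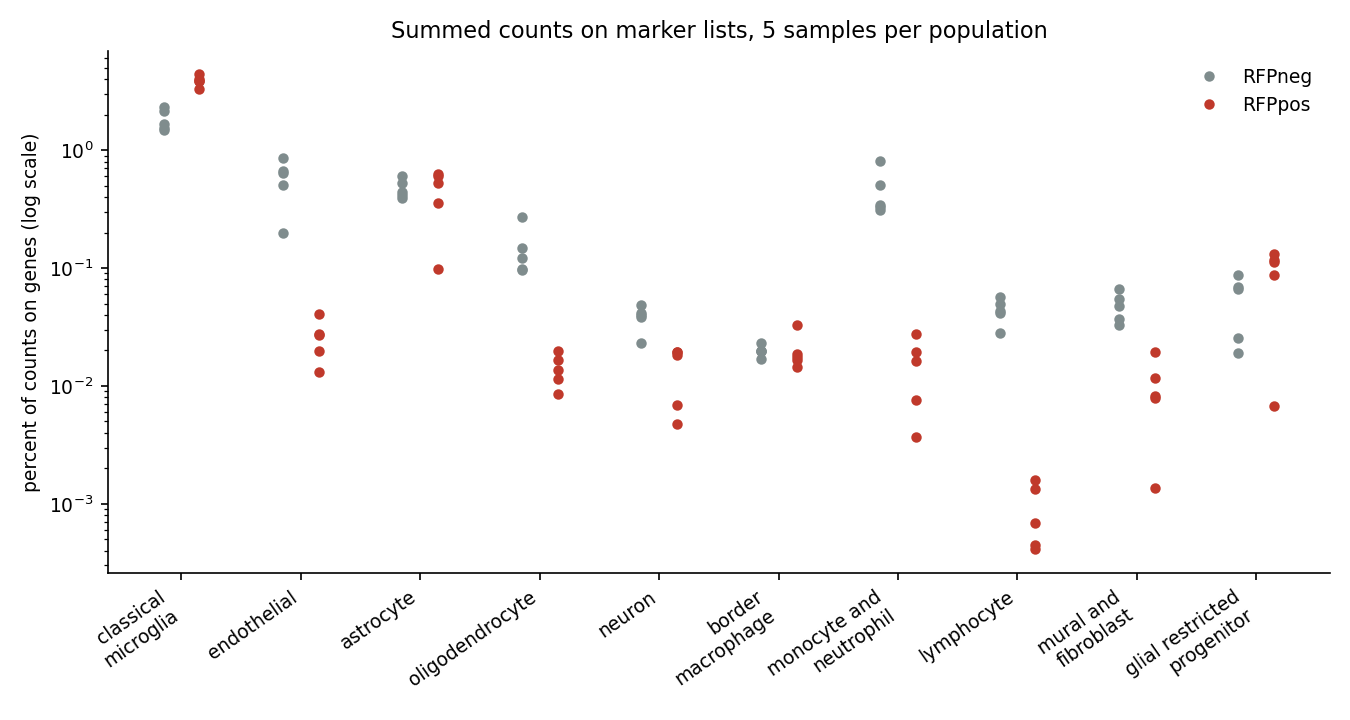
Percent of the counts on genes that fell on each marker list, on a log scale, for the 5 RFPneg (grey) and 5 RFPpos (red) samples. The classical microglia list is higher in the RFPpos samples, 6 other lists are lower in all 5 mice, and the astrocyte, border macrophage and progenitor lists overlap between the populations.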

How the data were processed

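RNA of sorted brain cells was measured with QuantSeq 3′ FWD libraries, which the authors ran through Lexogen's FWD UMI pipeline on the BlueBee platform. Their table as deposited holds a count for each gene and sample, without normalization. In the study the authors removed low genes with DAFS and tested with edgeR, adjusted for mouse. The labels list mm10, and the strand setting of the counting is not given in the sources used here. The single-cell samples were not analysed here. Of all reads, between 32.1% and 48.6% per sample fell on no gene (RFPneg 34.9% ± 2.24, RFPpos 41.5% ± 4.27, SD, n = 5 each) and between 0.295% and 0.436% were ambiguous. Both stayed out of library sizes and tests.

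Symbols and coordinates come from GENCODE M21 on GRCm38 and were found for 47224 of 47643 gene identifiers. Genes needed 40.7 CPM (10 counts in the median library) in at least 5 samples and 15 counts in all. The 5 RFPpos samples alone could satisfy this, so that all 6 genes passed is not a result. Counts were scaled by TMM and fitted in R 4.3.3 with edgeR 4.0.16 (glmQLFit and glmQLFTest) with the mouse as a block, and p-values were adjusted by Benjamini-Hochberg over all 4210 genes. The standard error is the absolute log2 fold change divided by the square root of F. Log2 differences within mice used log2 CPM with a prior count of 2, on library sizes from the counts of the tested genes scaled by TMM. They therefore differ from the log2 ratio of the printed CPM, which is per counts on all genes and not scaled by TMM. The fit was tested on simulated data. Marker shares were compared by exact permutation within mice, over 32 assignments. Alternatives used limma 3.58.1 and DESeq2 1.42.0.

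The pairing comes from the mouse numbers in the labels and from the methods, by which both populations of a number are from the same mouse. After the mean of each population was taken off, the samples of mice 1 to 5 correlated across tested genes with r of 0.219, −0.038, 0.141, −0.005 and 0.015. The p-values speak for these 5 mice only. Those of edgeR rest on a spread that includes counting noise and is estimated with information shared across all tested genes.

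The genes and lists were chosen with earlier results of these data known. The genes named are the 6 genes, the 20 classical markers, from each route list the called genes with the largest absolute log2 fold change (up to 4 in each direction) and close relatives, genes whose annotation overlaps one of the 6, genes among the 5 nearest profiles, the 2 genes on each side of the lowest of the 6, and the most abundant marker of each list. Genes at 0 in RFPpos and *Npy* were named after their values were seen. The alternatives were scaling by DESeq2's size factors, by library size alone, by the summed classical markers and by library sizes that include reads on no gene, all genes with at least 1 count, no block, edgeR's likelihood ratio test, DESeq2, limma with voom, a fold change threshold, each mouse left out, counts thinned to 177287 per sample, and for marker shares all reads as denominator.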

Additional observations from a re-analysis of the deposited data

Results flagged for a closer look

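In 160 groups of 5 values each, a value stood apart when its gap to the nearest other value exceeded 0.71 of the range of the group. This held for 12 values, and chance alone gives about 1 in 20 groups. Among the 6 genes, the RFPneg sample of mouse 1 had 451 CPM of *Apbb1ip*, while the others had 202 to 274 CPM. The within-mouse log2 difference of *Ubash3b* was 2.35 in mouse 2 and 1.48 to 1.70 in the other mice, and that of *Igsf6* was 2.55 in mouse 3 and 1.13 to 1.51 in the others.

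The RFPneg sample of mouse 1 also stood above the other RFPneg samples in *Fcrls* (355 CPM against 173 to 209), *Mgat4b* (67.7 against 40.2 to 48.1), *Cask* (118 against 25.5 to 38.5) and *Lpcat1* (147 against 61.2 to 84.5). Other RFPneg samples stood below the rest, mouse 5 in *Laptm4b* (43.4 CPM against 79.0 to 84.2) and mouse 4 in *Fermt2* (137 against 204 to 214). In RFPpos, mouse 4 had 3.99 CPM of *Mgat4c*, a single count, where the others had 0, mouse 2 had 27.6 CPM of *Tanc1* against 0 to 7.98, and mouse 2 had 0.0331% of its counts on border macrophage markers against 0.0144% to 0.0185%.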

How the results depend on the processing

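The count of genes above both *Cx3cr1* and *P2ry12* was 6 under all 15 alternatives, a number the choice of genes favours. The median log2 fold change of the 6 genes moved by more than its SD over mice, 0.30, under 1 alternative, library sizes from the classical markers, which gave 0.59 for the 6 genes and 0.10 for the 20 markers. There 11 genes were called higher and 3024 lower, against 432 and 477 as reported, so that higher genes made up 0.362% of calls in place of 47.5%. With reads on no gene in the library sizes, 283 were higher and 582 lower (32.7% higher), and the median of all tested genes was −0.18. With all 18571 genes that had a count, 834 were lower and the median of all genes was −0.25. With a log2 fold change above 1 also required, 248 were higher and 379 lower. The cause of these shifts was not tested.

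Without the pairing (no replicate block) 443 genes were higher and 458 lower, with medians of 1.66 for the 6 genes and 1.15 for the markers, and the block changed no other call among these summary results. Leaving out each mouse gave 308 to 426 higher and 355 to 496 lower genes, and medians of 1.65 to 1.78 for the 6 genes and 1.06 to 1.25 for the markers. The median of the 6 genes exceeded that of the markers by 0.48 to 0.61 under every alternative, an excess that the choice of genes favours. Changes of scaling hardly move it by construction, and the fits without a mouse reuse samples that selected the genes. The difference in share of border macrophage markers turned from 0.00014 to −0.00124 percentage points with all reads as denominator. Depth limits *Mgat4a*, *Ubash3b* and *Igsf6*, with 8 to 36 counts in each RFPneg sample.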
